A study of Mus musculus with 9 samples.

Results

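The translation initiation and elongation factors of mouse liver were compared between animals on a high-fat diet and controls. Members were all genes whose symbol in the array's annotation begins with Eif1 to Eif6, Eef1 or Eef2. The Eif2ak kinases and the sex chromosome genes Eif2s3x and Eif2s3y were left out, and only probe sets paired with exactly 1 gene symbol were used. The rule used no measured value, and it found 52 of the 17514 genes tested, read by 134 probe sets. Livers of c57Bl/6 mice kept on chow until the study gave the RNA of 4 control arrays and 5 arrays of the high-fat diet (HFD, Harlan-Teklad, 21% fat, with 42% of calories from fat). Age, sex, time on the diet and the composition of the control diet are not given in the sources used here. Nothing in the labels says that arrays came from separate animals, so p-values measure the spread between these arrays. All values are log2 differences of a probe set from its own baseline. Differences between groups can therefore be read, but levels cannot, and neither the tissue label nor the order of abundance of the factors could be checked.

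Protein synthesis starts when initiation factors bring the initiator tRNA and the small ribosomal subunit to the capped mRNA, scan to the start codon and join the large subunit. eIF2 carries the initiator tRNA, eIF2B reloads eIF2 with GTP, eIF3 is the large scaffold on the small subunit, and eIF4F binds the cap. Elongation factor eEF1A then delivers each aminoacyl-tRNA, the eEF1B subunits reload it, and eEF2 moves the ribosome along the mRNA. In liver, feeding and amino acids act on this machinery through mTORC1, which phosphorylates the eIF4E-binding proteins, and stress acts through kinases that phosphorylate eIF2. These controls act largely on proteins, which the arrays do not measure.

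Promoter windows from RefSeq (GRCm38.p6, 250 bases before to 50 after a start site) covered 41 of the 52 genes. The E-box CACGTG, bound by MYC and USF among other factors, occurred on either strand in 10 of these windows, or 24.4%, and in 9.06% of the windows of 13923 measured genes. The ETS motif CCGGAAG occurred in 13, or 31.7%, and in 14.1% of all windows, and the motif TGATGNAA of the stress factors ATF4 and CHOP in 0 of 41, against 2.71% of all. A match describes letters in the window and shows no binding. The bases before the start sites of 3 genes described below are printed 5′ to 3′ on the gene's strand, with the E-box of Eef2 and the ETS motifs of Eif3c and Eif4ebp2 (here as the reverse complement) in capitals. They lie at chr10:81176381-81176630 on the plus strand (Eef2), chr7:126566367-126566616 on the minus strand (Eif3c) and chr10:61452670-61452919 on the minus strand (Eif4ebp2).
Eef2: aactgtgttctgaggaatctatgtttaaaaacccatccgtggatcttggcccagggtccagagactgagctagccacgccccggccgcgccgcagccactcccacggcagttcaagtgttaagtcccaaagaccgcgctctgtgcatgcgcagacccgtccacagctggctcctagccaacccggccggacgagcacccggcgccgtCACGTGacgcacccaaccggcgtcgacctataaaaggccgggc
Eif3c: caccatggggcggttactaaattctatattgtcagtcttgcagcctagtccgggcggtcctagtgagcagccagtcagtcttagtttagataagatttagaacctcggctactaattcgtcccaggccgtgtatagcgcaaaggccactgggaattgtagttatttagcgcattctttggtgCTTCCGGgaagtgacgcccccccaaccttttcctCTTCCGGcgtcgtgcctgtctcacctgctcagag
Eif4ebp2: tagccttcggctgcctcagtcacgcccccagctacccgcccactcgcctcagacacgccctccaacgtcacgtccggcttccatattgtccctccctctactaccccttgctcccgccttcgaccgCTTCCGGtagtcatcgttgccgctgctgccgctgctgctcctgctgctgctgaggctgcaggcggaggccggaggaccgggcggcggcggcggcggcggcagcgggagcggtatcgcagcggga

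On the high-fat diet 5 translation factor genes rose, 3 fell and 44 did not pass the test. Of the 52 genes, 8 passed limma at an adjusted p under 0.05 (Benjamini-Hochberg over all genes), or 15.4%, against 5.24% of all genes tested. Eif5, Eif3c, Eif3a, Eif4e3 and Eif4ebp2 were higher on the high-fat diet (9.62%, against 3.37% of all genes), and Eif1a, Eif2b5 and Eef1a2 were lower (5.77%, against 1.87%). Leaving out 1 array left 3 to 6 calls: 3 without control replicate 1 or 4, 4 without control replicate 2 or 3. Of the HFD arrays, replicate 3 left 4 calls when omitted, replicate 1 left 5, and replicates 2, 4 and 5 left 6 each. The differences that passed were 1.34-fold to 1.73-fold. Over all 52 genes, called or not, 36 differences (69.2%) were below 0, against 53.8% of all genes, and the median was -0.12, against -0.02. Arrays of the 2 diets did not overlap for 12 genes (23.1%, against 9.82%), of which 8 were lower (15.4%, against 4.2%) and 4 higher (7.69%, against 5.62%). An unadjusted p under 0.05 was found for 19 genes (36.5%, against 19.1%). Averaged over the 52 genes, control arrays stood at 0.02 ± 0.03 (SD, n = 4) and HFD arrays at -0.04 ± 0.09 (SD, n = 5), with overlap.

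**Figure D1:**
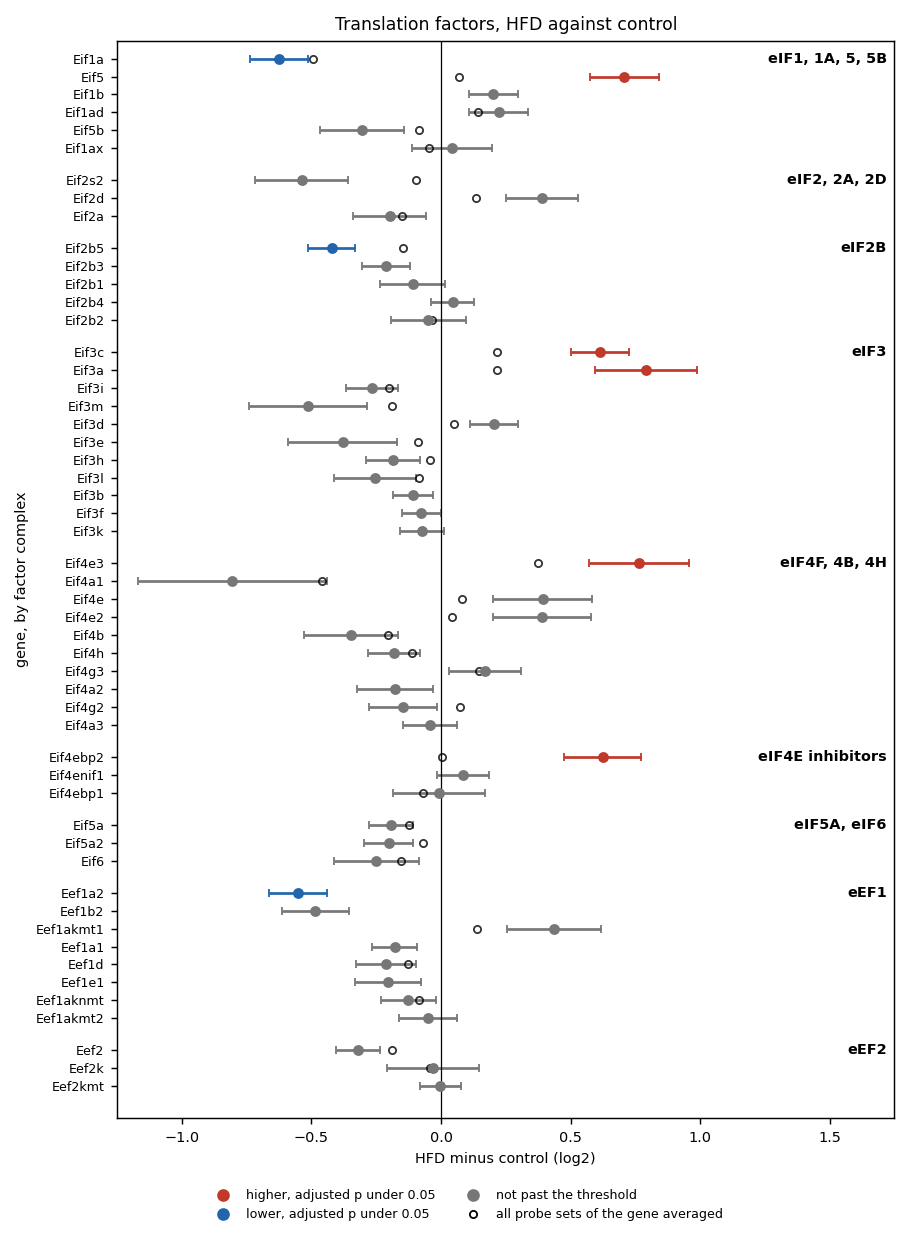
Difference of each of the 52 genes between HFD (5 arrays) and control (4 arrays), on the log2 scale, by factor complex, with bars of 1 SE and open circles for the mean of all probe sets of the gene. The 5 genes in red and the 3 in blue passed, and the open circles of the 5 red genes lie nearer to 0 than their filled points.

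None of the 5 rises held when the probe sets of a gene were averaged, while the falls of Eif1a and of Eef1a2, which has 1 probe set, did. Where a gene had more than 1 probe set, as 36 of the 52 did, it was represented by the most variable one over the 9 arrays, a choice that favours large differences. Of these 36 genes 7 passed (19.4%, against 6.45% of all such genes), and of the 16 with 1 probe set 1 passed (6.25%, against 4.12%). All probe sets lay on the same side of 0 for 13 of the 36 (36.1%, against 46.4%). Of the 7 genes past the threshold with several probe sets, only Eif1a had all of them on the same side of 0, or 14.3%, against 68.5% of all called genes with several probe sets. With the probe sets of each gene averaged, 3 of the 52 genes passed (5.77%, against 5.17% of all genes): Eif1a, Eef1a2 and Eef1b2, all lower. At an unadjusted p under 0.05 in limma, the averaged values counted 5 higher (9.62%, against 10% of all genes) and 10 lower (19.2%, against 9.09%). Tested one by one over all 41782 probe sets, 6 of the 134 passed (4.48%, against 3.26%), those of Eif5, Eif3c and Eif4ebp2 upward and those of Eif1a, Eif2b5 and Eef1a2 downward. No gene had probe sets past the threshold in opposite directions. Which transcript or which end of a transcript each probe set reads is not given in the sources used here.

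**Figure D2:**
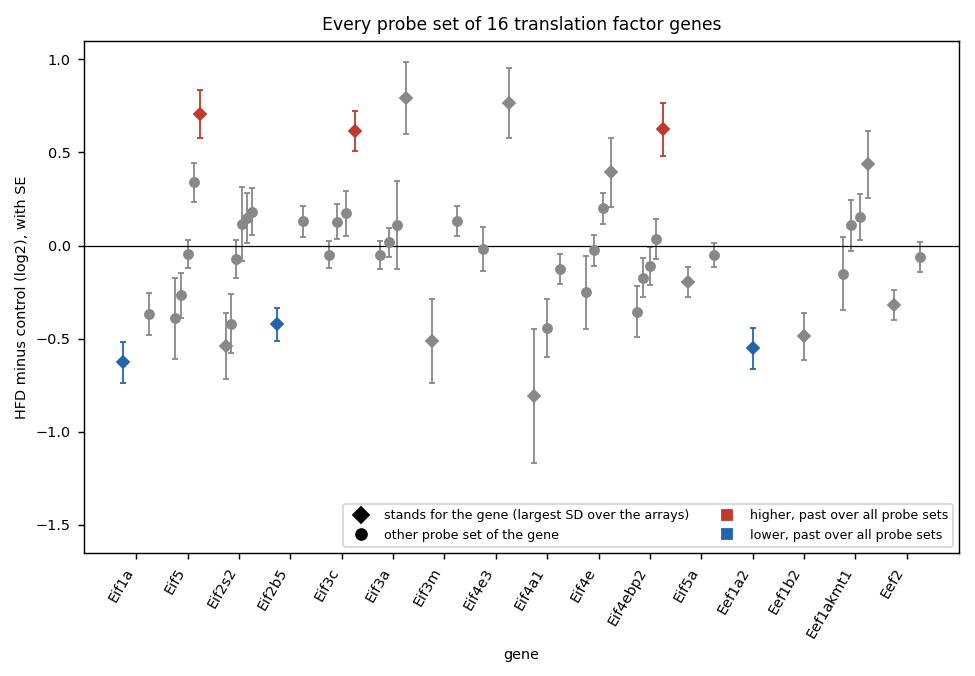
HFD minus control difference (log2, with bars of 1 SE) of every probe set of the 16 translation factor genes named by rule; diamonds mark the probe set that stood for the gene and colours those past the threshold over all probe sets. Eif5, Eif3c and Eif4ebp2 each have 1 red diamond, with grey circles at -0.39 to 0.34, -0.05 to 0.17 and -0.35 to 0.03, while both probe sets of Eif1a lie below 0.

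Among the factors of start codon selection and subunit joining, Eif1a fell and Eif5 rose. That was 33.3% of the 6 measured genes past the threshold, against 5.24% of all genes. Eif1a encodes an eIF1A, which sits in the decoding site of the small subunit and helps it scan. Its probe set 1424343_a_at read 0.20, 0.61, 0.66 and 0.55 on the control arrays and -0.04, -0.11, -0.28, 0.04 and -0.22 on the HFD arrays. All HFD arrays lay below all control arrays. The difference of -0.63 ± 0.11 (SE), a 1.54-fold fall, had an adjusted p of 0.0123 by limma. The other probe set of Eif1a differed by -0.37 ± 0.11, the average by -0.50 (adjusted p = 0.0141), and Eif1a passed with each of the 9 arrays left out in turn. The near-identical Eif1ax, of the X chromosome, differed by 0.04 ± 0.15, and signal from these paralogs cannot be told apart where a probe set matches both.

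Eif5 encodes the protein that makes eIF2 hydrolyse its GTP at the start codon. Its probe set 1456256_at read -0.18, -0.26, -0.11 and -0.35 in control and 0.11, 0.51, 0.81, 0.63 and 0.35 in HFD. The groups did not overlap, and the difference was 0.71 ± 0.13, or 1.63-fold (limma, adjusted p = 0.0141), with an adjusted p of 0.0532 without control replicate 2. The other 4 probe sets of Eif5 differed by -0.39, -0.27, -0.04 and 0.34, and the average of all 5 differed by 0.07 (adjusted p = 0.668). Of the 5 probe sets of Eif5, 1 passed. The other measured members of the group, Eif1b, Eif1ad, Eif1ax and Eif5b, did not pass, with differences from -0.31 ± 0.16 for Eif5b, the GTPase of subunit joining, to 0.22 ± 0.11 for Eif1ad.

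Of the carriers of the initiator tRNA, none of 3 passed limma, and 2 had an unadjusted p under 0.05, against 19.1% of all genes. With probe sets averaged, 0 of the 3 had an unadjusted p under 0.05. Eif2s2, the beta subunit of eIF2, had the lowest p of the 3. Its values were 0.21, 0.29, 0.23 and 0.14 in control and -0.17, -0.03, -0.49, 0.03 and -0.94 in HFD, without overlap, and the difference of -0.54 ± 0.18 had an adjusted p of 0.125. The HFD values were spread more widely, and replicates 3 and 5 held the lowest. Across its 6 probe sets Eif2s2 differed by -0.54 to 0.18. Eif2d, a factor that can place tRNAs on the ribosome without eIF2, differed by 0.39 ± 0.14 (adjusted p = 0.149) and also did not overlap between the groups. It was highest on HFD replicates 3 and 5, at 0.43 and 0.57. The other probe sets of Eif2d differed by -0.03 to 0.16, and the average by 0.13 (limma, adjusted p = 0.381).

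In eIF2B, the exchange factor that stress signalling through phosphorylated eIF2 inhibits, 1 of 5 subunits passed (20%, against 5.24% of all genes). Eif2b5 encodes the catalytic epsilon subunit, in which inherited loss of function causes a white matter disease. Its probe set 1445908_at read 0.24, 0.10, 0.18 and 0.47 in control and -0.21, -0.10, -0.20, -0.26 and -0.11 in HFD. All HFD arrays were lower, by 0.42 ± 0.09 on the log2 scale at the mean, or 1.34-fold (limma, adjusted p = 0.0271). The other probe set of Eif2b5 differed the opposite way, by 0.13 ± 0.08, and the average by -0.15 (adjusted p = 0.181). Leaving out control replicate 1, 3 or 4 or HFD replicate 1 or 3 ended the call, with adjusted p-values of 0.0640, 0.0611, 0.0621, 0.0547 and 0.0659. Eif2b1, Eif2b2, Eif2b3 and Eif2b4 differed by -0.21 ± 0.09 (Eif2b3) to 0.04 ± 0.08 (Eif2b4).

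Of 11 measured subunits of eIF3, 2 rose (18.2%, against 3.37% of all genes) and 0 fell. Differences below 0 numbered 8, where 53.8% of all genes lay below 0, and the median was -0.11. The subunits that rose, Eif3a and Eif3c, encode large core subunits of the complex. The probe set 1415859_at of Eif3c read -0.86, -0.47, -0.30 and -0.59 in control and -0.01, 0.12, 0.15, 0.01 and 0.02 in HFD. The groups did not overlap and the HFD arrays lay close together. The difference was 0.61 ± 0.11, or 1.53-fold (limma, adjusted p = 0.0123), and Eif3c passed with each array left out in turn. Its other 3 probe sets differed by -0.05 to 0.17 and the average by 0.22 (adjusted p = 0.147).

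For Eif3a, the probe set 1416661_at read -1.04, 0.05, -0.31 and -0.63 in control and -0.05, 0.47, 0.28, 0.44 and 0.39 in HFD. Control replicate 2 lay above HFD replicate 1, so the groups overlapped. The difference was 0.79 ± 0.20, or 1.73-fold (limma, adjusted p = 0.0469), while the other 3 probe sets differed by -0.05, 0.02 and 0.11. The Eif3a call held only without control replicate 2 or HFD replicate 1. It was lost without control replicates 1, 3 or 4 (adjusted p = 0.0915, 0.0862 and 0.123) and without HFD replicates 2, 3, 4 or 5 (0.0912, 0.0982, 0.0768 and 0.0750). Among the subunits that did not pass, Eif3m differed by -0.51 ± 0.23 (adjusted p = 0.256), Eif3e by -0.38 ± 0.21 and Eif3i by -0.26 ± 0.10. With the probe sets of each gene averaged, Eif3m differed by -0.19, Eif3e by -0.09 and Eif3i by -0.20.

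Of the 10 measured genes of the cap-binding group, Eif4e3 rose (10%, against 3.37% of all genes) and the other 9 did not pass. Eif4e3 encodes a cap-binding relative of eIF4E. Its probe set 1417978_at read -0.59, -0.27, -0.45 and -0.58 in control and 0.20, -0.09, 1.00, 0.26 and 0.09 in HFD. The groups did not overlap, and HFD replicate 3 was far above the rest. The difference was 0.76 ± 0.19, or 1.70-fold (limma, adjusted p = 0.0471). The other probe set of Eif4e3 differed by -0.02 ± 0.12. The call was lost without control replicates 1, 2, 3 or 4 (adjusted p = 0.115, 0.0859, 0.112 and 0.120) and without HFD replicates 1 or 4 (0.0696 and 0.0689).

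The cap-binding protein itself, Eif4e, differed by 0.39 ± 0.19 (adjusted p = 0.305), by 0.22 without control replicate 3, and by 0.08 in the average of its 4 probe sets. Eif4e2, a relative that represses translation, differed by 0.39 ± 0.19 (adjusted p = 0.307). Its probe sets ran from -0.28 to 0.39, and their average differed by 0.04. Eif4a1, the RNA helicase of the complex, had the largest difference of all 52 genes and did not pass. It read 0.35, 0.22, 0.27 and -0.03 in control and 0.01, -0.01, -1.30, 0.03 and -1.75 in HFD. HFD replicates 1, 2 and 4 lay within the control range, and replicates 3 and 5 lay far below it. The difference of -0.81 ± 0.36 had an adjusted p of 0.262. Eif4b, which stimulates the helicase, differed by -0.35 ± 0.18, and the scaffold genes Eif4g2 and Eif4g3 by -0.15 ± 0.13 and 0.17 ± 0.14. The other probe sets of Eif4g2 all lay above 0, at 0.02 to 0.21, and the average of its probe sets differed by 0.07.

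Of the 3 measured partners that hold eIF4E away from eIF4G or carry it, Eif4ebp2 rose (33.3%, against 3.37% of all genes). Its probe set 1417084_at read -0.59, -0.25, -0.05 and -0.34 in control and 0.38, 0.54, 0.45, -0.12 and 0.33 in HFD. HFD replicate 4 lay below control replicate 3, and the other HFD arrays lay above all control arrays. The difference was 0.62 ± 0.15, or 1.54-fold (limma, adjusted p = 0.0377). The other 4 probe sets of Eif4ebp2 differed by -0.35, -0.17, -0.11 and 0.03, and the average of the 5 by 0.00 (adjusted p = 0.981). The Eif4ebp2 call held without control replicate 3 or HFD replicate 4 and was lost without each other array, with adjusted p-values of 0.0588 to 0.0971. Eif4ebp1, the binding protein best known as an mTORC1 target, differed by -0.01 ± 0.18 (adjusted p = 0.987), and Eif4enif1, which takes eIF4E into the nucleus, by 0.09 ± 0.10.

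The factor eIF5A helps ribosomes through stretches such as prolines, and eIF6 keeps the ribosomal subunits apart. Their 3 genes all had differences below 0. None of the 3 passed limma, and 1 had an unadjusted p under 0.05, against 19.1% of all genes. Eif5a differed by -0.19 ± 0.08 (adjusted p = 0.247) without overlap between the groups, Eif5a2 by -0.20 ± 0.09 and Eif6 by -0.25 ± 0.16.

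Most genes of the elongation factor eEF1 and its partners had differences below 0. The partners include methyltransferase genes such as Eef1akmt1, so the list is wider than the factor itself. Of its 8 measured genes, 1 fell (12.5%, against 1.87% of all genes) and 0 rose. Differences below 0 numbered 7, where 53.8% of all genes lay below 0, and the median was -0.19. Averaged over the 8 genes, control arrays stood at 0.10 ± 0.05 (SD, n = 4) and HFD arrays at -0.07 ± 0.10 (SD, n = 5), and no HFD array reached a control array. Eef1a2, the eEF1A form known from neurons and muscle, fell. Its single probe set, 1418062_at, read 0.44, 0.35, 0.37 and 0.36 in control and -0.07, 0.02, -0.27, -0.02 and -0.51 in HFD. Control arrays lay within a narrow range and all HFD arrays below it. The difference was -0.55 ± 0.11, a 1.47-fold fall (limma, adjusted p = 0.0210). Without control replicate 1, 2, 3 or 4 or HFD replicate 3, the adjusted p was 0.0575, 0.0616, 0.0608, 0.0518 and 0.0570.

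Eef1b2 encodes the exchange subunit that reloads eEF1A. Its single probe set read 0.25, 0.28, 0.32 and 0.05 in control and -0.05, -0.10, -0.46, -0.11 and -0.59 in HFD, without overlap. The difference of -0.49 ± 0.13 had an adjusted p of 0.0585 by limma, and of 0.0462 where the probe sets of every gene were averaged, which for this gene changes only the moderation of the variance and the adjustment. Eef1a1, the eEF1A form of most tissues, differed by -0.18 ± 0.09 (adjusted p = 0.306), again without overlap. The exchange factor subunit Eef1d differed by -0.21 ± 0.12. Eef1g, another subunit, is read only by probe sets paired with several symbols, of which 7 hold a translation factor and were left out. The exception in direction was Eef1akmt1, a lysine methyltransferase of eEF1A, at 0.44 ± 0.18 (adjusted p = 0.224).

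Eef2, the translocase, read 0.27, 0.42, 0.21 and 0.16 in control and 0.01, -0.01, -0.06, -0.02 and -0.20 in HFD. All HFD arrays lay below all control arrays. The difference of -0.32 ± 0.08 had an adjusted p of 0.0575 by limma, and of 0.0398 after a further quantile normalization. Its other probe set differed by -0.06 ± 0.08. Eef2k, the kinase that inactivates eEF2, differed by -0.03 ± 0.18 and did not pass. Of the 3 genes of this group, Eef2 alone had an unadjusted p under 0.05, against 19.1% of all genes.

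**Figure D3:**
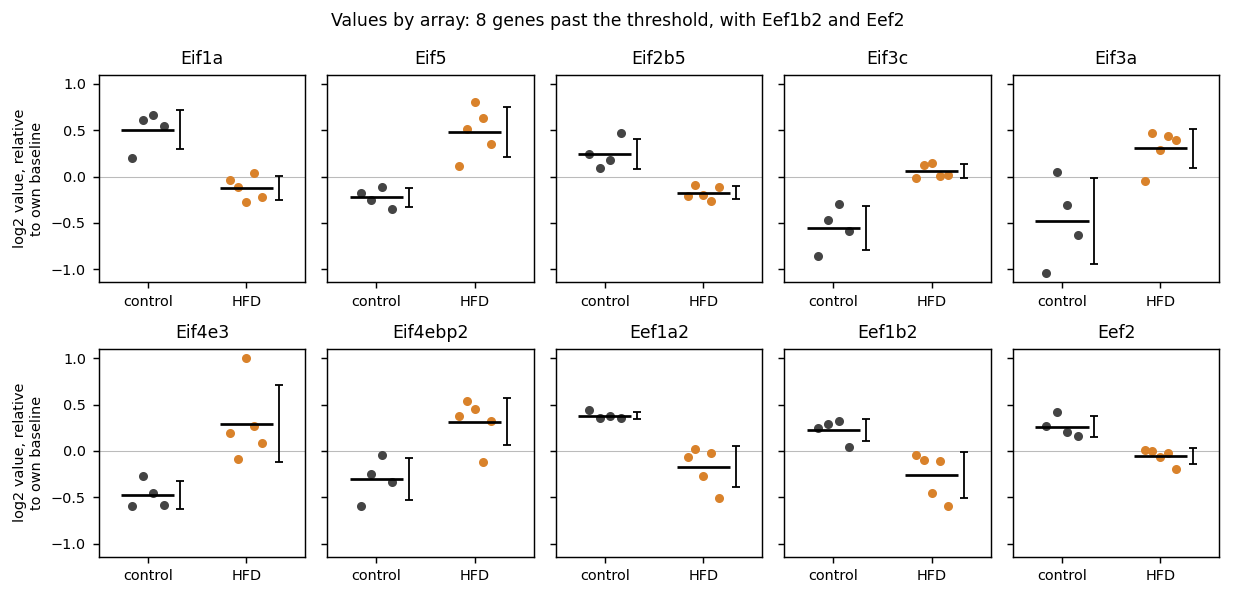
Values by array (log2, relative to the baseline of each probe set) of the 8 genes past the threshold and of Eef1b2 and Eef2; points are arrays, lines group means and bars 1 SD (control n = 4, HFD n = 5). Groups overlap for Eif3a and Eif4ebp2 and for none of the other 8 genes.

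Many factors were low on the same pair of HFD arrays. The 2 lowest of the 9 arrays were HFD replicates 3 and 5 for 24 of the 52 genes (46.2%), against 13.2% of all genes tested, while these arrays were the 2 highest for 5 genes (9.62%, against 10.5%). The 24 genes included 5 of 11 eIF3 subunits and 5 of 10 cap-binding genes. They also included 4 of 8 genes of eEF1 and its partners and all 3 genes of eIF5A and eIF6. The lowest values of HFD replicate 5 were -1.75 for Eif4a1, -1.15 for Eif3m, -0.998 for Eif3e, -0.94 for Eif2s2, -0.83 for Eif4b and -0.69 for Eif6. Other probe sets of the same gene could run the opposite way on these arrays: for Eif2s2, HFD replicate 5 read -0.94 on 1456617_a_at and 0.73 on 1448820_a_at.

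The array's control probe sets for the 3′ and 5′ ends of transcripts stood apart on the same arrays. The 3′ minus 5′ difference, averaged over b-actin, Gapdh and pyruvate carboxylase, was 0.65 on HFD replicate 3 and 1.02 on HFD replicate 5. It was -0.45, -0.11, -0.20 and -0.03 on the control arrays and -0.31, -0.46 and -0.62 on HFD replicates 1, 2 and 4. A high difference means relatively less signal from the 5′ end, as degraded RNA or short amplification products give, and its part in the low values was not tested.

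Without HFD replicates 3 and 5, a comparison chosen after seeing the data, 5 of the 52 genes passed limma (9.62%, against 3.55% of all genes): Eif1a, Eef1a2, Eif3c, Eif5 and Eif4e3, with adjusted p-values of 0.0283 to 0.0493. The adjusted p was 0.0640 for Eif2b5, 0.121 for Eif4ebp2 and 0.131 for Eif3a. Differences below 0 numbered 32 of 52 with a median of -0.04, against 8879 of all 17514 genes with a median of -0.004. The difference of Eif4a1 moved to -0.19, that of Eif3m to -0.17 and that of Eif2s2 to -0.27. Eef2 stood at -0.27 and Eef1b2 at -0.31.

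**Figure D4:**
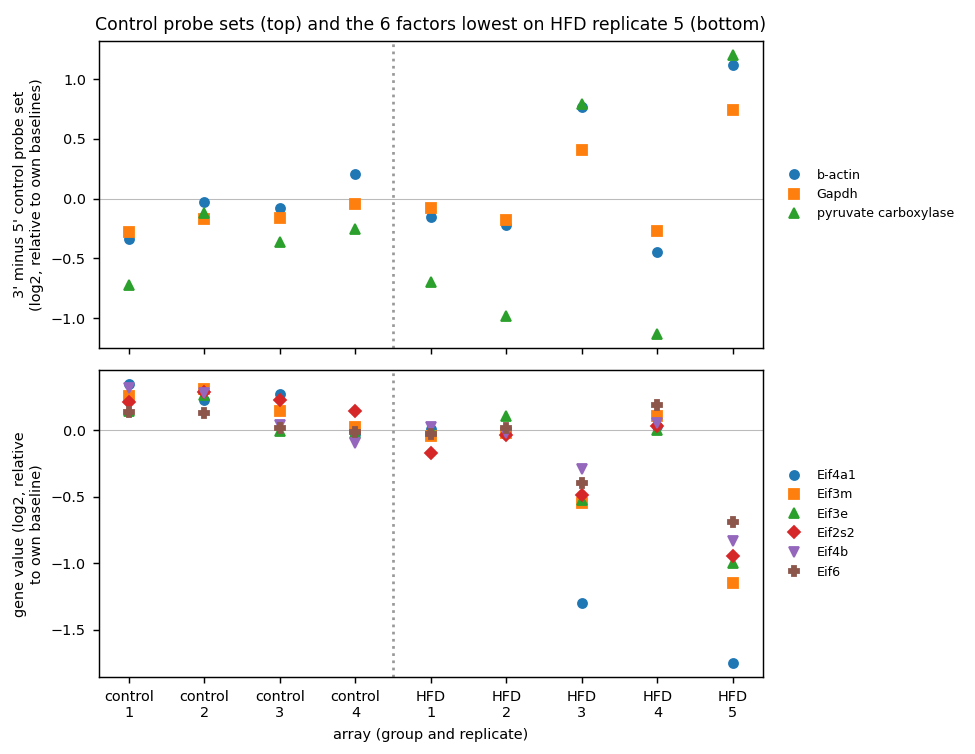
Top, 3′ minus 5′ difference of the control probe sets of 3 transcripts on each array (log2); bottom, values of the 6 factors lowest on HFD replicate 5 (log2, relative to own baseline). HFD replicates 3 and 5 are highest in the top panel for all 3 transcripts; the 6 genes below were chosen for their low values on HFD replicate 5, so the bottom panel only describes them.

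These factors act on the ribosome. Of 49 genes of cytosolic ribosomal proteins, 13 fell and 0 rose (26.5%, against 5.24% of all genes), 44 had differences below 0, and the median was -0.34. Their mean was 0.20 ± 0.06 (SD, n = 4) on control arrays and -0.14 ± 0.06 (SD, n = 5) on those of HFD, without overlap. Rpl13a of the large subunit fell by 0.67 ± 0.10 on the log2 scale (limma, adjusted p = 0.00426) and Rps19 of the small subunit by 0.50 ± 0.08 (adjusted p = 0.00856). Without HFD replicates 3 and 5, 12 of the 49 ribosomal genes fell (24.5%), against 179 of all 17514 genes. The median of the 49 was then -0.31. It was -0.15 for eEF1 with its partners and -0.06 for eIF3. The genes of eEF1A, eEF1B and eEF2 and of ribosomal proteins are known to share a 5′ terminal oligopyrimidine tract, through which mTORC1 controls their translation.

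Mitochondria have translation factors of their own, and of 8 measured 2 rose (25%, against 3.37% of all genes) and 0 fell. Mtif3, which starts mitochondrial initiation, read -0.47, -0.45, -0.47 and -0.44 in control and 0.31, 0.18, 0.27, -0.10 and 0.43 in HFD. All HFD arrays lay above all control arrays, and the difference had an adjusted p of 0.00608 by limma. Mtif2, the mitochondrial initiator tRNA carrier, rose by 0.48 ± 0.12 (adjusted p = 0.0494). Its call was lost on leaving out any single array other than HFD replicate 3 (adjusted p from 0.0577 to 0.133), and Mtif3 kept its call without each. The difference between mitochondrial and cytosolic factors was not tested.

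Among 13 genes of the eIF2 kinases and the stress response they start, 1 rose and 1 fell (15.4%, against 5.24% of all genes). Atf5, a transcription factor whose mRNA is translated when eIF2 is phosphorylated, rose by 0.75 ± 0.12 (limma, adjusted p = 0.00851). Asns, the asparagine synthetase that ATF4 induces, fell 2.15-fold, by 1.11 ± 0.24 on the log2 scale (adjusted p = 0.0258). Its control arrays ranged from 0.34 to 1.61 and its HFD arrays from -0.44 to -0.06. With probe sets averaged, 3 of the 13 genes passed, against 5.17% of all genes: Atf5, Asns and Ddit3. The gene Ddit3, which encodes the stress factor CHOP, was named after its values were seen. Ddit3 differed by 0.77 ± 0.25 in its most variable probe set (adjusted p = 0.123) and by 0.68 ± 0.16 in the average (adjusted p = 0.0331). Without control replicate 3 or HFD replicate 3 the adjusted p of Asns was 0.0849 and 0.0581. Of 13 genes that carry mTORC1 signals to translation, Tsc1, which restrains mTORC1, rose by 0.68 ± 0.14 (adjusted p = 0.0236), and 12 did not pass. The share past was 7.69%, against 5.24% of all genes. With its 3 probe sets averaged Tsc1 differed by 0.30 (adjusted p = 0.133), and the call was also lost without control replicate 1, 2 or 4 (adjusted p = 0.0546, 0.0819 and 0.0580).

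None of 16 genes of poly(A) binding, release, recycling and eIF5A hypusination passed, nor any of 19 cytosolic aminoacyl-tRNA synthetases. An unadjusted p under 0.05 in limma was found for 1 gene of each list, against 19.1% of all genes. The lowest p-values of these lists belonged to the poly(A)-binding protein Pabpc4, at -0.29 ± 0.10 (limma, adjusted p = 0.116), and the lysyl-tRNA synthetase Kars, at -0.33 ± 0.12 (adjusted p = 0.180).

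**Figure D5:**
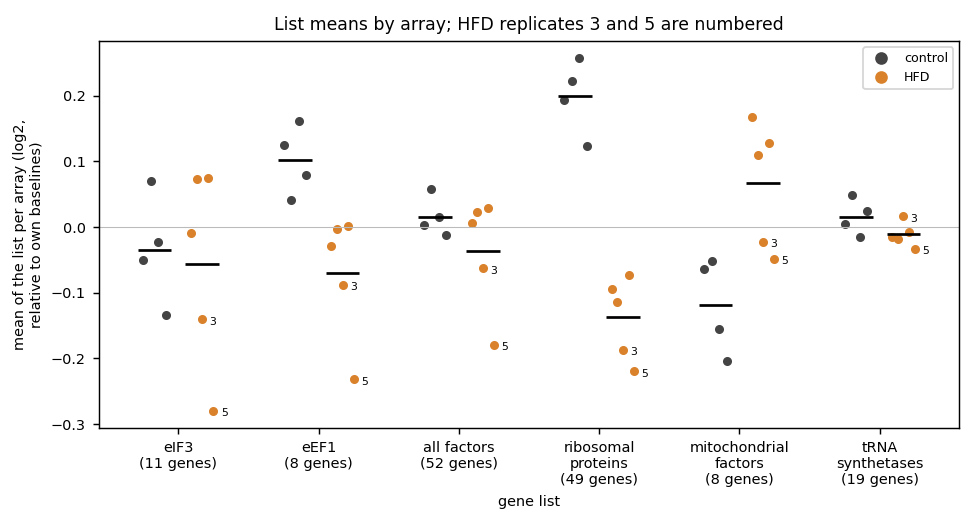
Mean of each gene list on each array (log2, relative to own baselines), with lines for group means; HFD replicates 3 and 5 are numbered. Groups do not overlap for eEF1 with its partners, ribosomal proteins and mitochondrial factors, and they overlap for eIF3, all factors and tRNA synthetases.

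Markers of other liver cells differed between the diets as well, and whole tissue does not tell fewer cells of a type from less RNA per cell. All 9 Kupffer cell markers were lower in HFD, 6 of them past the threshold. Their mean per array ran from 0.13 to 1.24 in control and from -1.18 to 0.01 in HFD. Of 6 sinusoidal endothelial markers 2 fell, and of 5 neutrophil markers 1 fell. All 6 endothelial and all 5 neutrophil markers had differences below 0, with medians of -1.11 and -0.24. Of 4 stellate markers 1 rose and 1 fell, and 0 passed of 4 lymphocyte, 3 cholangiocyte, 3 adipocyte and 5 hepatocyte markers. Of all genes, 1.87% fell, 3.37% rose and 53.8% had differences below 0. The hepatocyte markers had a median difference of -0.06, and 4 of the 5 were below 0. Their mean per array ran from 0.005 to 0.10 in control and from -0.09 to -0.01 in HFD, without overlap. The part of these cells in the differences of the translation factors was not tested.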

How the data were processed

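Total RNA of mouse liver was amplified from the 3′ end with oligo(dT) primers, labelled with biotin and hybridised to Affymetrix arrays, per the labels' protocols. The deposited values were summarised with RMA, quantile normalized and moved to a baseline, the median over all samples, by the authors, per the series' design text; the submitters' processing notes name RMA with no version. The authors' values were read as log2, the scale RMA returns; the log base is not given. In 92.8% of probe sets the central values were equal and opposite (within 1e-05), as with a median taken over 10 arrays; 9 are analysed here. No level, background or detection could be read, so no filter on low signal was applied. Precision is limited by how many arrays there are.

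The 60 control probe sets were kept out of the tests. Of the other 41782, 32801 had 1 gene symbol, 862 several and 8119 none, and 32614 matched the gene table by Entrez ID. Of 17514 genes, 8404 had several probe sets, and the most variable one stood for the gene. HFD was compared with control with limma 3.58.1 under R 4.3.3 (functions lmFit and eBayes, no trend, two-sided, no covariate), adjusted by Benjamini-Hochberg over all genes, threshold 0.05. In data simulated for this comparison over 17514 genes, the fit recovered 87.8% of log2 changes of 1 and 37.6% of changes of 0.5, with 4.69% false calls. The simulated noise was normal and independent between arrays, and the choice of probe set was not repeated. In the data HFD replicates 3 and 5 correlated at 0.49. The simulated shares therefore do not give the false calls among the genes reported. Replicates were numbered in order of deposition, and no batch is given in the labels.

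Genes named were each member past the threshold, the member with the lowest p of each complex, the 6 largest differences among members not past, and, of lists of other translation genes, those past and the one with the lowest p; other members are named by value for their complex. Ribosomal protein genes past the threshold are given by count and 2 examples. Members and lists were chosen with earlier results of these data known. Alternatives covered normalization, averaged and single probe sets, filters, eBayes settings, thresholds and left-out arrays, and the one without HFD replicates 3 and 5 was added after seeing the data. Eif1, Eif2s1, Eif3g and Eif4g1 were not analysed here.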

Additional observations from a re-analysis of the deposited data

Results flagged for a closer look

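The 3′ minus 5′ difference of the control probe sets, which no comparison of diets used, was above its range in the control arrays on 2 HFD arrays. It averaged 0.65 over 3 transcripts on HFD replicate 3 and 1.02 on HFD replicate 5, where the control arrays ran from -0.45 to -0.03.

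The mean of the 6 genes of start codon selection and subunit joining was -0.083 on HFD replicate 5, apart from the other HFD arrays at 0.11 to 0.16. It was 1 of 52 groups of arrays examined for a distant array, and chance marks about 1 in 20.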

How the results depend on the processing

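None of the up to 18 alternatives applied to single genes reversed the direction of a named translation factor gene. Single probe sets, the threshold of 0.01 and the minimum of 1.5-fold were not among the 18. Other probe sets of Eif5, Eif2b5 and Eif4ebp2 differed the opposite way, as given above. Of 285 values of 16 genes under up to 18 alternatives, 235 kept their side of the threshold, 45 lost and 5 gained the call. A gene not called that stayed so counts as kept, so 235 does not measure how stable the calls were. All 45 losses fell on the 8 called genes, from 0 of 18 alternatives for Eif1a to 11 of 18 for Eif3a. The count of factors higher in HFD, 5, was 0 with probe sets averaged, 3 over single probe sets, 2 without HFD replicate 5 and control replicate 1, 3 without HFD replicates 3 and 5, and 2 to 3 without each array in turn. The count lower, 3, was 6 after a further quantile normalization, which added Eef1b2, Eef2 and Eif2s2, 1 at 1.5-fold or more, and 1 to 3 without each array. At an adjusted p under 0.01 (limma), 0 factors were higher and 0 lower, and 19 had an unadjusted p under 0.05. Over all genes, 5.24% passed in the comparison reported; the number was 245 at that stricter threshold, 596 at 1.5-fold or more, and 385 (without control replicate 2) to 996 (without HFD replicate 4) without each array. Each array left out lowered the number of factors called, to 3 to 6 of 8, and only Eif1a and Eif3c passed without each. The cause was not tested. The median of all genes moved by less than 0.1 under every scaling. No paired analysis was possible because the labels give no replicate numbers shared between the groups.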
